A study of Anas platyrhynchos and Gallus gallus and Anas rubripes with 21 samples.

Results

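Black duck (*Anas rubripes*) and Pekin duck (*Anas platyrhynchos*) are the 2 ducks of one genus among the 6 ducks of this study, the first a wild bird and the second a domestic form of the mallard. Their trigeminal ganglia were compared gene by gene on log2(RPKM + 1), where RPKM is the read count scaled for gene length and for the number of mapped reads, and 1 is added so that genes near 0 do not dominate. Genes were kept where the mean RPKM of both ducks was at least 1, which left 12108 of the 20451 genes in the table. The trigeminal ganglion houses facial sensory neurons, which in ducks supply the bill, tongue and mouth cavity. Touch neurons with large myelinated fibers, neurons for heat, cold and painful stimuli, satellite glia around each cell body and Schwann cells along each axon make up most of the tissue. Dabbling ducks such as these find food in mud and water largely by touch, through a bill rich in mechanoreceptors. The distance of each other duck from Pekin duck, measured in the same way, served as the yardstick.

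Each species was represented by 3 embryos taken after they had broken the inner shell membrane, shortly before hatching. Since incubation time differs between species, this was embryonic day 21 to 22 in black duck and day 25 to 26 in Pekin duck. The yardstick ducks were lesser scaup (day 25 to 26), ruddy duck (day 30 to 31), harlequin duck (day 28 to 29) and wood duck (day 28 to 31). Pekin duck eggs came from a commercial farm and the eggs of all other ducks from wildlife institutions, none of the birds was treated, and the labels give no sex for any embryo. For each gene the deposited table gives a single number per species, averaged by the authors over its 3 birds, so the spread between birds and the depth of each library cannot be read from it. No test was possible for any difference, and a gene is called 2-fold apart where the species means differ by at least 1 on the log2(RPKM + 1) scale. Species, days of incubation and origin of the eggs cannot be told apart in this design, and every distance from Pekin duck rests on the same Pekin duck column. Reads of all species were aligned to a duck genome made from Pekin duck and to the chicken genome, and the part of sequence divergence from Pekin duck in the differences was not tested.

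Black duck lay closer to Pekin duck than any other duck did. The median absolute difference from Pekin duck was 0.14 in black duck, 0.22 in lesser scaup, 0.29 in harlequin duck, 0.30 in wood duck and 0.57 in ruddy duck. The distance of the next duck, lesser scaup, was 1.58 times and that of ruddy duck 4.16 times the distance of black duck. In black duck 83.6% of genes lay within 1.25-fold of Pekin duck, against 65.1% in lesser scaup, 54.9% in harlequin duck, 53.0% in wood duck and 30.3% in ruddy duck. The median signed difference of black duck was -0.00, so neither duck was shifted as a whole. Across genes, Pearson's *r* with Pekin duck was 0.981 for black duck, 0.966 for lesser scaup and 0.879 for ruddy duck, values that describe genes and not birds.

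**Figure D1:**
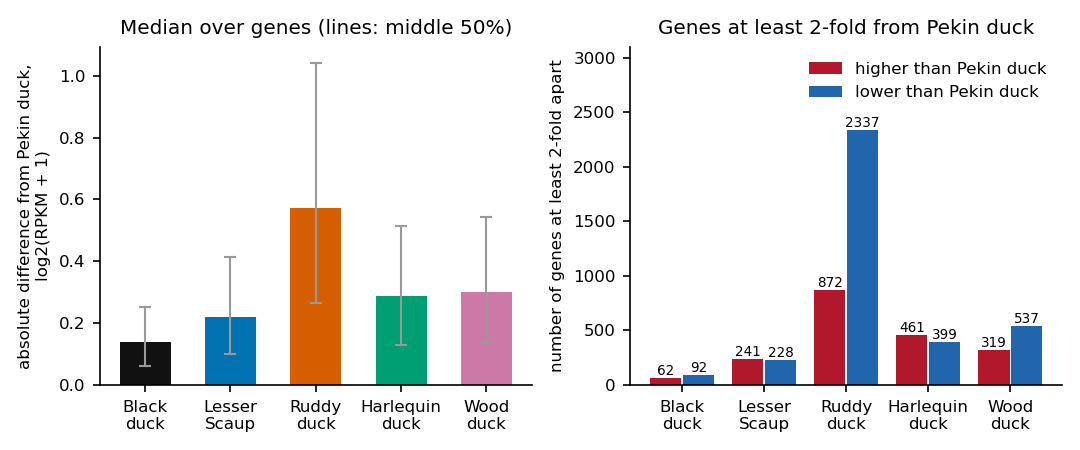
Distance of 5 ducks from Pekin duck. The left panel gives the median absolute difference on log2(RPKM + 1) over genes, with lines for the middle 50% of genes, and the right panel the number of genes at least 2-fold higher (red) or lower (blue) than in Pekin duck. Black duck has the shortest bars, with 62 genes higher and 92 lower, and ruddy duck the tallest.

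The same order held gene by gene. Black duck was the closest of the 5 ducks to Pekin duck in 4782 genes (39.5%), lesser scaup in 21.4%, harlequin duck in 16.4%, wood duck in 14.6% and ruddy duck in 8.05%. It was the farthest of the 5 in 385 genes (3.18%). Of the 15 pairs that 6 ducks allow, Pekin duck and black duck had the smallest median absolute difference. From the side of black duck, the distance was 0.21 to lesser scaup, 0.28 to harlequin duck and 0.28 to wood duck, close to the distances of these ducks from Pekin duck. Low genes differed more often, with 2.96% of genes between 1 and 2 RPKM being 2-fold apart, 1.098% between 5 and 20 RPKM and 0.134% at 100 RPKM or more. Of genes that stand in both the duck and the chicken annotation 0.822% were 2-fold apart, against 4.48% of genes in the duck annotation alone.

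In all, 154 genes were at least 2-fold apart between black duck and Pekin duck, or 1.27% of the genes compared, with 62 higher in black duck (0.512%) and 92 lower (0.76%). The corresponding share was 3.84% for lesser scaup (1.97% higher and 1.87% lower), 7.03% for harlequin duck (3.77% and 3.26%), 7.1% for wood duck (2.65% and 4.45%) and 26.7% for ruddy duck (7.26% and 19.5%). In 33 of the 154 genes (21.4%) black duck stood at least 2-fold beyond all other 5 ducks. It was above them 26 times and below them 7 times. With another duck in its place, the share was 9.38% of 469 genes for lesser scaup and 9.53% of 860 for harlequin duck. It was 12.6% of 856 for wood duck and 36.1% of 3209 for ruddy duck. In 16 genes Pekin duck was the bird that stood apart, 13 times above and 3 times below the rest. This count was the same with each other duck in the place of black duck, which its definition all but fixes. Genes of skeletal muscle made up 15 of the 62 higher genes, and genes placed on the female-specific chromosome W made up 19 of the 92 lower ones. Without genes on chromosomes W and Z and without the muscle list, black duck stood beyond the other ducks in 19 genes. Both groupings were chosen after the values had been seen.

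**Figure D2:**
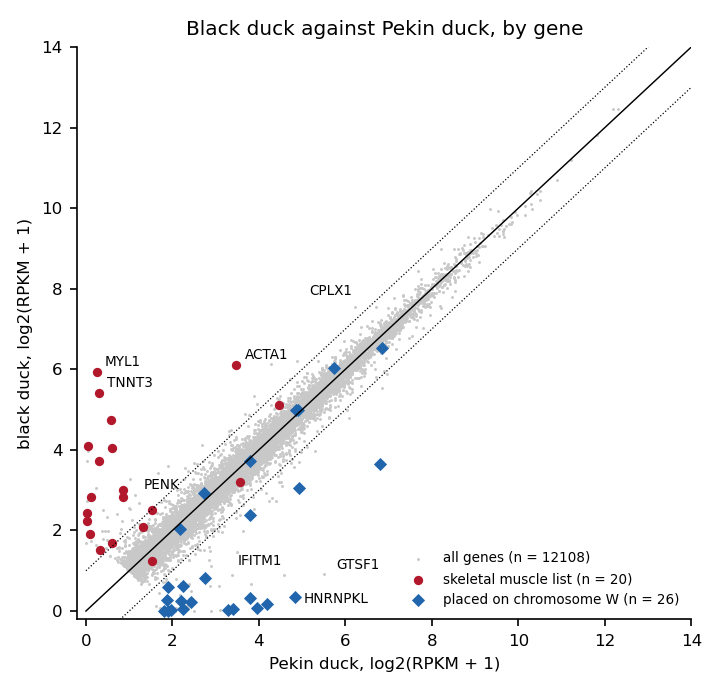
Black duck against Pekin duck for 12108 genes, each a species mean on log2(RPKM + 1). The solid line marks equal values and the dotted lines a difference of 1. Red points are the 20 genes of the skeletal muscle list that passed the filter, most of them above the upper dotted line, and blue diamonds the 26 genes placed on chromosome W, 19 of them below the lower one.

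Genes of striated muscle were the most prominent group among those higher in black duck. Of the 41 genes on the muscle list 35 were in the table, and 31 of these 35 were higher in black duck and 3 lower. Of the 20 that passed the filter, 15 were at least 2-fold higher, against 0.512% of all genes, and none was 2-fold lower. Their median difference was 2.18. Most of these 20 passed the filter only through the black duck value, so that this median is a description and no support. It was 1.14 over every gene above 0 in either duck and 3.46 over genes that averaged 5 RPKM or more. Summed over the list, the level was 53.8 RPKM in Pekin duck, 335 in black duck, 49.2 in lesser scaup, 121 in ruddy duck, 148 in harlequin duck and 42.5 in wood duck. Black duck was thus the highest of the 6, ruddy duck and harlequin duck lay between, and Pekin duck, lesser scaup and wood duck lay close together. In bulk tissue, a larger number of cells of a type and more RNA per cell cannot be told apart.

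The largest difference of all genes was that of *MYL1*, an alkali light chain of fast skeletal myosin. The species means were 0.186 RPKM in Pekin duck, 60.3 in black duck, 0.366 in lesser scaup, 18.1 in ruddy duck, 23.1 in harlequin duck and 0.1404 in wood duck. Black duck, ruddy duck and harlequin duck stood far above the other 3 ducks, and the difference between black duck and Pekin duck was 5.69. *TNNT3*, the tropomyosin-binding troponin of fast muscle, followed with 0.231 RPKM in Pekin duck and 41.6 in black duck, against 15.02 in ruddy duck and 13.4 in harlequin duck. *TNNC2*, the calcium-binding troponin of fast muscle, measured 0.491 and 25.97 RPKM. For both troponins black duck was again highest, ruddy duck and harlequin duck lay between, and lesser scaup and wood duck were under 1 RPKM. *ACTA1*, skeletal muscle actin, was the most abundant of the group. Its level was 10.1 RPKM in Pekin duck, 67.5 in black duck, 9.303 in lesser scaup, 24.9 in ruddy duck, 30.4 in harlequin duck and 5.98 in wood duck. Here Pekin duck, lesser scaup and wood duck were not near 0, and the difference was 2.63.

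Most of the remaining muscle genes were also highest in black duck, at smaller levels. *ACTN2*, an actinin of the Z disc, was at 0.5100 RPKM in Pekin duck and 15.7 in black duck. *MYLPF*, the regulatory light chain of fast myosin, was at 0.235 and 12.3 RPKM. *MYOZ1*, which binds calcineurin at the Z disc, *CASQ2*, a calcium store protein of the sarcoplasmic reticulum, and *TNNI2*, the inhibitory troponin of fast muscle, differed by 2.71, 2.22 and 1.82. The myosin heavy chains *MYH1G* and *MYH1E* rank among the 12 highest named genes with differences of 4.07 and 2.39, but their copies in the genome are near-identical and may share reads. *TTN* and *NEB*, the giant filament proteins, differed by only 1.09 and 1.18. *TNNC1*, the troponin C of slow and cardiac muscle, was higher in ruddy duck (7.05 RPKM) than in black duck (6.15), with 0.8102 in Pekin duck. *MB*, the oxygen store myoglobin, was set apart by a low Pekin duck value of 0.826 RPKM, since black duck had 7.07 and the other ducks 2.91 to 4.68.

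Some muscle genes went against the group. *RYR3*, a calcium release channel also found in neurons, was at 10.8 RPKM in Pekin duck and 8.14 in black duck, and *MYL3*, a slow and ventricular light chain, at 1.88 and 1.36. *CSRP3*, a LIM protein of striated muscle that is not on the list, was 2-fold lower in black duck, with 11.3 RPKM in Pekin duck and 2.96 in black duck. The regulators of muscle fate were scarce. *MYOD1* was listed at 0 in Pekin duck and at 0.498 RPKM in black duck, *MYOG* at 0 and 0.0246 RPKM, and *MYF6* at 0 and 0.117 RPKM. Genes outside the list with the same pattern were *OCM2*, a small calcium-binding protein of the parvalbumin family (0.0268 and 14.6 RPKM), *GATM*, the first enzyme of creatine synthesis (0.174 and 7.26 RPKM), and *MYBPC1*, the slow myosin-binding protein C (0.0159 and 5.63 RPKM). How far muscle fibers in the sampled tissue contributed to these values was not tested.

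**Figure D3:**
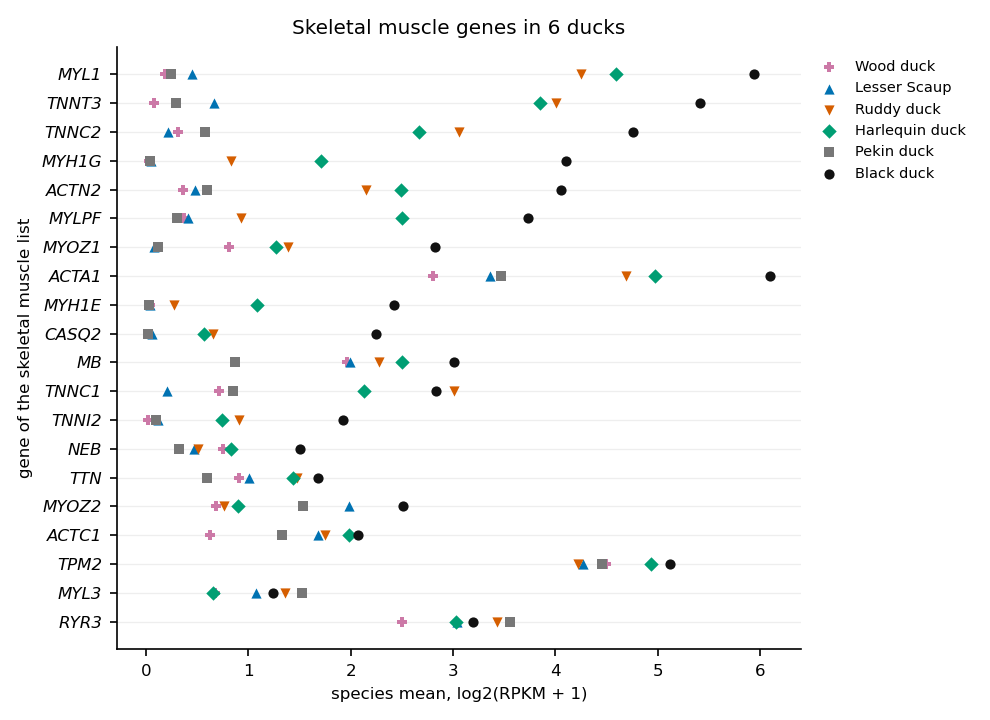
Species means of the 20 muscle genes that passed the filter, on log2(RPKM + 1), ordered by the difference between black duck (black circles) and Pekin duck (grey squares). Black duck is the highest duck for most genes, harlequin duck (green) and ruddy duck (orange) mostly lie between, and *RYR3* and *MYL3* run the other way.

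The other genes higher in black duck that are named here had varied functions, and a common theme was not tested for. *USP39*, a factor of the spliceosome, was at 13.7 RPKM in Pekin duck, 39.2 in black duck and 10.96 to 14.5 in the other 4 ducks, so that black duck alone stood apart. *MRPL57*, a protein of the mitochondrial ribosome, measured 9.27 and 21.6 RPKM, against 2.97 to 8.88 elsewhere. *URGCP*, placed in the duck annotation alone, measured 0.392 and 4.08 RPKM, with 0.0197 to 1.35 in the others. By contrast *CPLX1*, or complexin, which clamps synaptic vesicles before release, was lowest in Pekin duck. Levels were 73.8 RPKM in Pekin duck, 185 in black duck, 152 in lesser scaup, 324 in ruddy duck, 144 in harlequin duck and 222 in wood duck. *COCH*, an extracellular matrix protein known from the inner ear, was at 28.6 RPKM in Pekin duck and 73.4 in black duck, but at 27.6 in harlequin duck and 197 in ruddy duck. *HPGDS*, which makes prostaglandin D2, and *CD36*, a fatty acid receptor, differed by 1.07 and 1.57, and both varied widely between the other ducks. The genes of this paragraph were chosen after their values had been seen.

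Genes placed on chromosome W formed the clearest group among those lower in black duck. In birds, females carry a Z and a W chromosome and males a pair of Z chromosomes, and many of the genes that remain on W have a closely related copy on Z. Positions were taken from the RefSeq annotation of the newer Pekin duck assembly IASCAAS_PekinDuck_T2T, to which 9804 of the 11006 kept genes with a duck gene identifier could be matched. The table held 36 W genes, of which 31 were lower in black duck and 5 higher. Of the 26 that passed the filter 19 were at least 2-fold lower, against 0.76% of all genes, and none was 2-fold higher. Their median difference was -1.88. The same median was -1.76 in harlequin duck, with 18 genes 2-fold lower, but 0.27 in lesser scaup, -0.03 in ruddy duck and 0.16 in wood duck. Summed over the 19 genes, the level was 277 RPKM in Pekin duck, 26.3 in black duck, 34.0 in harlequin duck, 455 in lesser scaup, 513 in ruddy duck and 543 in wood duck. Of the 19 genes, 16 were under 1 RPKM in black duck. The lowest Pekin duck value among the 19 was 2.47 RPKM, so for each of them the Pekin duck value was enough to pass the filter. The 16 under 1 RPKM in black duck passed through it alone. The count of 19 and the median of -1.88 are therefore a description and no support.

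*HNRNPKL*, a relative of the RNA-binding protein HNRNPK, had the lowest difference among the W genes. It was at 27.5 RPKM in Pekin duck, 0.283 in black duck, 42.4 in lesser scaup, 51.8 in ruddy duck, 1.57 in harlequin duck and 46.2 in wood duck. Its difference was -4.47, and black duck and harlequin duck lay far under the other 4. *ZFR*, a zinc finger RNA-binding protein, was at 17.2 RPKM in Pekin duck and 0.127 in black duck. *UBQLN1*, a shuttle factor of the proteasome, was at 14.6 and 0.0616 RPKM, and *KIF2A*, a kinesin that takes microtubules apart, at 3.59 and 0.192. *CHD1W*, the W copy of a chromatin remodeler widely used to tell male and female birds apart, had 3.71 RPKM in Pekin duck, 0.543 in black duck and 0.428 in harlequin duck. Lesser scaup had 4.33, ruddy duck 5.04 and wood duck 4.09 RPKM, so that the gene split the ducks into the same 2 sets as *HNRNPKL*. *ZSWIM6* was listed at 0 in black duck and at 2.703 RPKM in Pekin duck, and *KCMF1.1*, a copy of a ubiquitin ligase gene that was named after its values had been seen, was at 8.78 and 0.0111 RPKM.

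The other copies of the same genes did not follow. *HNRNPK* was at 66.3 RPKM in Pekin duck and 85.5 in black duck, *UBQLN1.1* at 69.05 and 94.5, *KIF2A.1* at 53.4 and 75.1, and *CHD1* at 8.64 and 11.7. *ZFR.1* differed by 0.17 and *KCMF1* by 0.44. In each of these 6 pairs the W copy was lower and its partner higher in black duck. Reads that match both copies of a pair may have been shared or dropped in counting, so the level of each copy is uncertain. Not all genes placed on W were low, and the placement of genes in the newer assembly was not tested. Of the 26, 7 lay between -0.33 and 0.29. Among them were *GLO1*, the main enzyme of methylglyoxal removal, at 114 RPKM in Pekin duck and 90.8 in black duck, and *BTBD9* at 28.9 and 30.6. *GLP1R*, a gut hormone receptor placed on W, did not share the split, since it was high in Pekin duck alone (12.9 RPKM, against 4.25 in black duck and 0.30 to 3.79 in the others).

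A further set of lower genes could not be placed and was picked out by the same split of ducks. Of the 92 lower genes, 32 were also 2-fold lower than Pekin duck in harlequin duck and in no other duck. Of these, 13 were on W, 17 were unmatched and 2 were autosomal, while 40 of the 92 were unmatched in all. Over all genes compared for harlequin duck, 3.26% were 2-fold lower than in Pekin duck. Since the split defined the set, it is a description and no support. Among the unmatched ones, *NIPBL*, the cohesin loader, was at 4.64 RPKM in Pekin duck and 0.00863 in black duck, while its partner on Z, *NIPBL.1*, was at 9.101 and 12.7. *VCP*, an ATPase that extracts proteins from complexes, was at 7.49 and 0.538 RPKM, and *VCP.1* on Z at 143 and 164. *GPBP1* and *RASA1*, an inhibitor of RAS, differed by -2.23 and -1.77. For *GPBP1* the other copy, *GPBP1.1*, is the one placed on W, and it was slightly higher in black duck, at 27.99 RPKM in Pekin duck and 30.7 in black duck. With the W genes and this set left aside, 54 of the 92 lower genes remained.

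Genes on chromosome Z were shifted the other way, by much less and nearly as a whole. The median difference of 505 Z genes was 0.25 in black duck, and 83.8% of them were higher than in Pekin duck. Of the Z genes 5 (0.990%) were at least 2-fold higher and 0 lower, against 0.512% and 0.76% of all genes. The median over 9273 autosomal genes was -0.01, with 48.4% higher. On the 29 autosomes with at least 20 genes the median ranged from -0.06 to 0.02, so that no autosome came near the value for Z. Harlequin duck had a median of 0.20 on Z, whereas lesser scaup (-0.09), ruddy duck (-0.08) and wood duck (-0.19) were below Pekin duck. Low W genes and high Z genes thus went together in black duck and harlequin duck. The sex of the birds behind each mean is not given, and its part in these values was not tested. Several neuronal genes named here lie on Z, among them *NTRK2* and *CPLX1*, and the part of this shift in their differences was not tested.

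**Figure D4:**
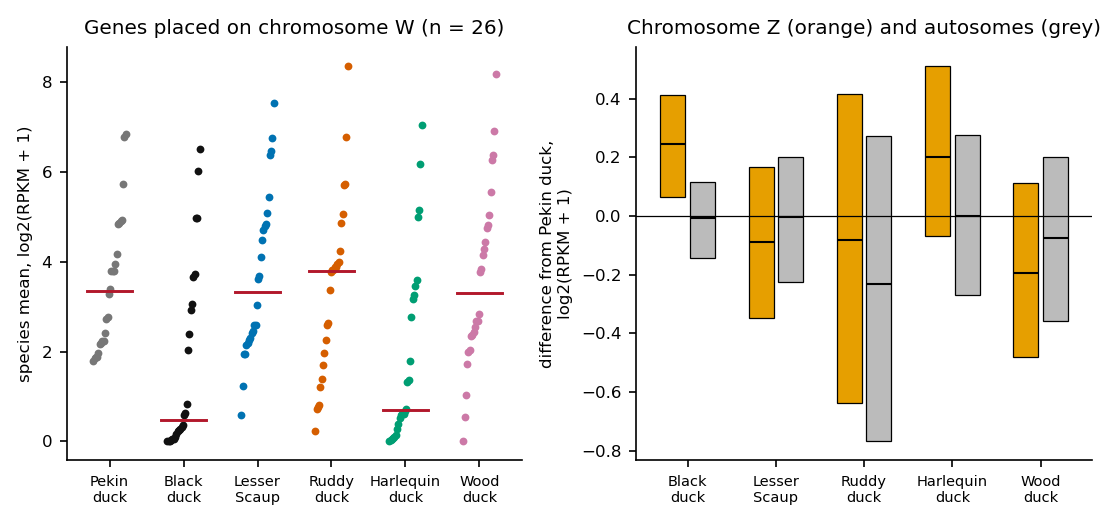
Left, levels of 26 genes placed on chromosome W in each duck on log2(RPKM + 1), with red lines for medians. Right, differences from Pekin duck on log2(RPKM + 1) of 505 genes on Z (orange) and 9273 autosomal genes (grey), with boxes for the middle 50% of genes and lines for medians. Black duck and harlequin duck have the lowest W levels and the highest Z boxes.

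Apart from chromosome W, the lower genes held several in which Pekin duck was the exception. *GTSF1*, a factor of the piRNA pathway known from the germ line, had the lowest difference of all. The species means were 44.1 RPKM in Pekin duck, 0.905 in black duck, 2.56 in lesser scaup, 2.05 in ruddy duck, 0.311 in harlequin duck and 2.96 in wood duck. Pekin duck alone had a high level, and the difference was -4.57. *SIRT5*, a mitochondrial desuccinylase, was at 4.13 RPKM in Pekin duck and at 0.02503 to 0.766 in the other 4 ducks, with 0.0482 in black duck. *EXFABP*, an extracellular fatty acid-binding lipocalin, and *SAA2*, an acute phase protein of serum, were also highest in Pekin duck, with differences of -1.58 and -1.50. *GZMM*, a protease of cytotoxic lymphocytes, was at 18.6 RPKM in Pekin duck, 5.97 in black duck and 0.0865 to 4.78 in the others. *FAM219A* fell into the same group with 2.75 and 0.224 RPKM.

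The remaining lower genes named here split the ducks in several ways. *IFITM1*, an interferon-induced membrane protein that restricts viral entry, ranged more widely than most. Its level was 22.9 RPKM in Pekin duck, 0.843 in black duck, 26.2 in lesser scaup, 62.8 in ruddy duck, 0.548 in harlequin duck and 285 in wood duck. Black duck and harlequin duck were under 1 RPKM, the same split as for *HNRNPKL*, although *IFITM1* is autosomal. Wood duck was highest. *GPR35*, a G protein-coupled receptor, was at 2.62 and 0.647 RPKM, with black duck below all others (4.17 to 37.2). *KCNAB1*, an auxiliary subunit of Kv1 channels, was at 30.4 RPKM in Pekin duck and 14.5 in black duck, and *LAMP5*, a neuronal lysosome-associated protein, at 20.2 and 5.66. The plasma proteins *APOA1*, of high-density lipoprotein, *TF*, the iron carrier, and *SERPIND1*, a thrombin inhibitor, were lower too, by differences of -1.31, -1.22 and -1.24. These last 4 genes, from *LAMP5* on, were chosen after their values had been seen.

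Some markers of touch neurons, such as *PIEZO2*, lay close together in black duck and Pekin duck, and others did not. *PIEZO2*, the main mechanically gated channel of touch neurons, was at 101.8 RPKM in Pekin duck and 99.7 in black duck, and at 68.3 to 101 in the other 4 ducks. The difference was -0.03, and lesser scaup, with 101 RPKM, was as close to Pekin duck. *MAF*, a transcription factor of rapidly adapting touch neurons in mice, differed by 0.11, and *NEFH*, the heavy neurofilament of thick axons, by 0.10, with 717 RPKM in Pekin duck and 769 in black duck. *NTRK2*, the receptor of BDNF, was higher in black duck. Levels were 44.4 RPKM in Pekin duck, 58.8 in black duck, 42.5 in lesser scaup, 41.4 in ruddy duck, 43.7 in harlequin duck and 41.3 in wood duck. Pekin duck and the other 4 ducks lay within a narrow range and black duck above it, but this gene lies on Z. *S100B*, a calcium-binding protein of glia and large neurons, was the farthest below, at 220.4 RPKM in Pekin duck and 129 in black duck, and harlequin duck (92.2) and wood duck (116) were lower still.

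As a list, 30 of 34 genes of large-fiber mechanoreceptors passed the filter, 17 of them higher and 13 lower in black duck. None was 2-fold apart, against 1.27% of all genes, and their median was 0.08. Against -0.00 over all genes, this median was small, and the median absolute difference of the list was 0.19 in black duck and 0.16 in lesser scaup. Lesser scaup was thus the closer of both ducks here. *MAFA*, a relative of MAF, was at 14.4 RPKM in Pekin duck, 9.99 in black duck and 2.11 to 9.12 in the others, and *NECAB2*, a neuronal calcium-binding protein, at 2.46 and 1.22. *SPP1*, osteopontin, lay the other way with 0.871 and 2.105 RPKM. *PVALB*, the calcium buffer of fast and proprioceptive neurons, lay close, with 284 RPKM in Pekin duck and 269 in black duck, although the other ducks ranged from 90.8 to 569.

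Genes of thermoreceptors and nociceptors were on balance slightly higher in black duck, far less than in wood duck or harlequin duck. The table held 27 of them, of which 22 passed, 14 higher and 8 lower, where 50.4% of all genes were lower. Their median was 0.10 and none was 2-fold apart, against 1.27% of all genes. Over genes that averaged 5 RPKM or more the median was 0.02. The median of the same list was 0.10 in lesser scaup, 0.66 in harlequin duck and 1.02 in wood duck. *TRPA1*, a channel opened by irritants, was at 29.1 RPKM in Pekin duck and 36.7 in black duck, against 99.2 in wood duck. *TRPM8*, the cold and menthol channel, lay the other way, with 31.1 in Pekin duck, 20.7 in black duck and 73.3 in wood duck. *SCN9A*, a sodium channel of pain neurons, differed by 0.28, and *SCN11A*, which sets their resting excitability, by 0.55. *TAC1*, the precursor of substance P, was at 106 and 125 RPKM, and *CALCB*, a calcitonin gene-related peptide, at 22.7 and 13.9.

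Of the neuropeptide genes 13 of 25 in the table passed the filter, with a median of 0.12. Against 1.27% of all genes, 1 of the 13 was 2-fold apart. This was *PENK*, the precursor of enkephalins, in which Pekin duck was the exception. It was at 1.21 RPKM in Pekin duck, 6.33 in black duck, 6.72 in lesser scaup, 21.2 in ruddy duck, 6.02 in harlequin duck and 6.96 in wood duck. Black duck lay at the level of lesser scaup, harlequin duck and wood duck, and its difference from Pekin duck was 1.73. *ADCYAP1*, the precursor of the peptide PACAP, was also lowest in Pekin duck, at 31.9 RPKM against 55.3 in black duck and 57.2 to 157 in the other ducks. *NTS*, the neurotensin precursor, was scarce in both, at 0.864 and 1.34 RPKM.

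Ion channel lists had small medians. The 14 sodium channel genes above the filter had a median of 0.15 with 11 higher and 3 lower, the 39 potassium channel genes one of 0.02, and the 16 calcium channel genes one of 0.08. The sodium channel median was 0.39 in lesser scaup and 0.38 in wood duck. *SCN4B*, a beta subunit that shapes resurgent current, was the farthest below at 55.4 RPKM in Pekin duck and 32.8 in black duck, a value also seen in lesser scaup (32.8). *KCNN2*, a calcium-activated potassium channel on Z, was at 20.9 and 37.6 RPKM. Among 20 other channels and helpers of mechanotransduction the median was -0.11, with 8 higher and 12 lower. *TMC3*, a relative of the hair cell channel TMC1, was at 39.8 RPKM in Pekin duck and 21.1 in black duck, and *STOM*, stomatin, at 29.3 and 18.5, while *TMIE*, a partner of the hair cell channel, was higher at 3.33 and 6.97. None of these 20 genes was 2-fold apart, against 1.27% of all genes, so that none in a list of this size says little.

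Lists of general neuronal identity differed least. The 14 pan-neuronal genes had a median of 0.01 and a median absolute difference of 0.08, against 0.18 in lesser scaup and 0.53 in ruddy duck. Their summed level was 9451 RPKM in Pekin duck and 9235 in black duck. The 27 transcription factors of sensory neurons had a median of 0.05 and the same small spread (0.08). *ISL1*, needed for sensory neuron fate, was at 34.5 RPKM in Pekin duck and 44.7 in black duck, and *DRGX*, of pain neurons, at 25.4 and 20.9. *GAP43*, a growth cone protein, differed by 0.25 and *ENO2*, a neuronal glycolytic enzyme, by -0.29. The 15 genes of neurotrophins and their receptors also had a median of 0.01, but they did not differ as little. Their median absolute difference was 0.19 in black duck and 0.18 in harlequin duck. Among them *GFRA2*, a neurturin receptor, was at 14.3 and 18.8 RPKM.

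Glial lists also had small medians. The 19 genes of compact myelin had a median of 0.09 and a summed level of 10381 RPKM in Pekin duck and 11102 in black duck, with wood duck at 8077 and ruddy duck at 15132. The 24 genes of satellite glia and immature Schwann cells had a median of 0.01 and sums of 2628 and 2638 RPKM. Within these lists *ASPA*, which breaks down N-acetylaspartate, was at 65.2 RPKM in Pekin duck and 41.2 in black duck, but ranged from 2.16 to 175 in the other ducks. *GFAP*, an intermediate filament of glia, was at 48.6 and 27.2 RPKM, and *GJA1*, a gap junction protein of satellite glia, at 45.9 and 31.9. *CNP*, a myelin enzyme, was slightly higher, at 390.0 and 502.

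Most markers of immune cells and the globin genes were lower in black duck. Of 13 macrophage and leukocyte genes above the filter 12 were lower and 1 higher, with a median of -0.33. Among all genes that passed the filter 50.4% were lower. Over all 33 members with a value, without the filter, 29 were lower and 3 higher. The share of all genes without the filter is not given here. The median shrank to -0.10 over every gene above 0 and to -0.18 over genes that averaged 5 RPKM or more. The list median was -0.35 in harlequin duck, about as low as in black duck. It was -0.16 in wood duck, -0.03 in lesser scaup and -0.02 in ruddy duck. Lesser scaup (median absolute difference 0.07) was closer to Pekin duck than black duck was (0.33). *CSF1R*, the receptor on which macrophages depend, was at 6.35 RPKM in Pekin duck, 4.08 in black duck and 2.65 in harlequin duck. *C1QC*, a complement chain of macrophages, was at 3.204 and 1.91 RPKM, and *CD3D*, of the T cell receptor complex, at 4.11 and 2.61. *LCP1*, a leukocyte actin bundler that other cells also express, was the gene that went the other way (70.9 and 74.8). Of 11 erythroid genes 9 were lower, with a median of -0.52. At least 2-fold lower were 3 of them, against 0.76% of all genes. These were the globins *HBE1* (6.33 and 1.82 RPKM), *HBM* (2.61 and 0.737) and *HBAD* (13.5 and 6.05), whose family members are similar in sequence and may share reads. Over the genes of the list that stand in both annotations, none of them a globin, the median was -0.0091, and over every gene of the list above 0 it was -0.19. Summed erythroid levels were 197 RPKM in Pekin duck, 145 in black duck and 397 in lesser scaup.

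Other tissues that a dissection could include gave mixed values. Meningeal and epithelial genes had a median of -0.20 (-0.088 over every gene above 0 and -0.58 over genes that averaged 5 RPKM or more), with 9 of 10 lower, and *PTGDS*, a prostaglandin synthase of the meninges, was at 103 RPKM in Pekin duck and 55.1 in black duck. Cartilage and bone genes had a median of 0.33, with 8 of 13 higher, which was 0.14 over every gene above 0 and 0.20 without chromosomes W and Z, and *HAPLN1*, a link protein of cartilage matrix that lies on Z, was at 6.48 and 11.03 RPKM. The 32 collagen and fibroblast genes had a median of 0.06, with *POSTN*, periostin, at 18.4 and 33.8 RPKM and a range from 3.27 to 46.1 in the other ducks. The 24 endothelial and pericyte genes had a median of -0.09. Pigment cell genes were scarce, since 8 of 24 passed the filter and the melanosome genes *TYR*, *TYRP1*, *PMEL* and *MLANA* were all under 0.1 RPKM in both ducks. *OCA2*, a melanosome transporter, was at 1.98 RPKM in Pekin duck, 0.928 in black duck and 0.0741 to 0.196 in the other 4. How far these tissues contributed to any difference was not tested.

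Lists of functions that every cell carries had medians near 0. The 70 cytosolic ribosome genes had a median of -0.05 and the 64 genes of oxidative phosphorylation one of -0.08, while harlequin duck had 0.41 and 0.23. One gene of the second list, *UQCRQ*, of respiratory complex III, was 2-fold higher (2.74 and 11.1 RPKM), and it stands in the chicken annotation alone. The 48 cell cycle genes were on balance slightly higher in black duck, with a median of 0.09. Of these, 34 were higher and 14 lower, where 50.4% of all genes were lower. The same list was at 0.49 in lesser scaup. The 22 immediate early genes, which respond to handling and activity, had a median of -0.07, the 19 clock genes one of -0.08 and the 40 chaperone genes one of 0.05. In 35 detoxification genes the median was -0.08, and the glutathione transferases *GSTA3* (67.3 and 26.6 RPKM) and *GSTO1* (11.9 and 28.4) were 2-fold apart in opposite directions. Of the 34 lists with at least 10 genes above the filter, 26 held no 2-fold gene. With 1.27% of all genes 2-fold apart, lists of such sizes would hold few or none at that share. Black duck had the smallest distance from Pekin duck in 24 of the 34 lists.

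**Figure D5:**
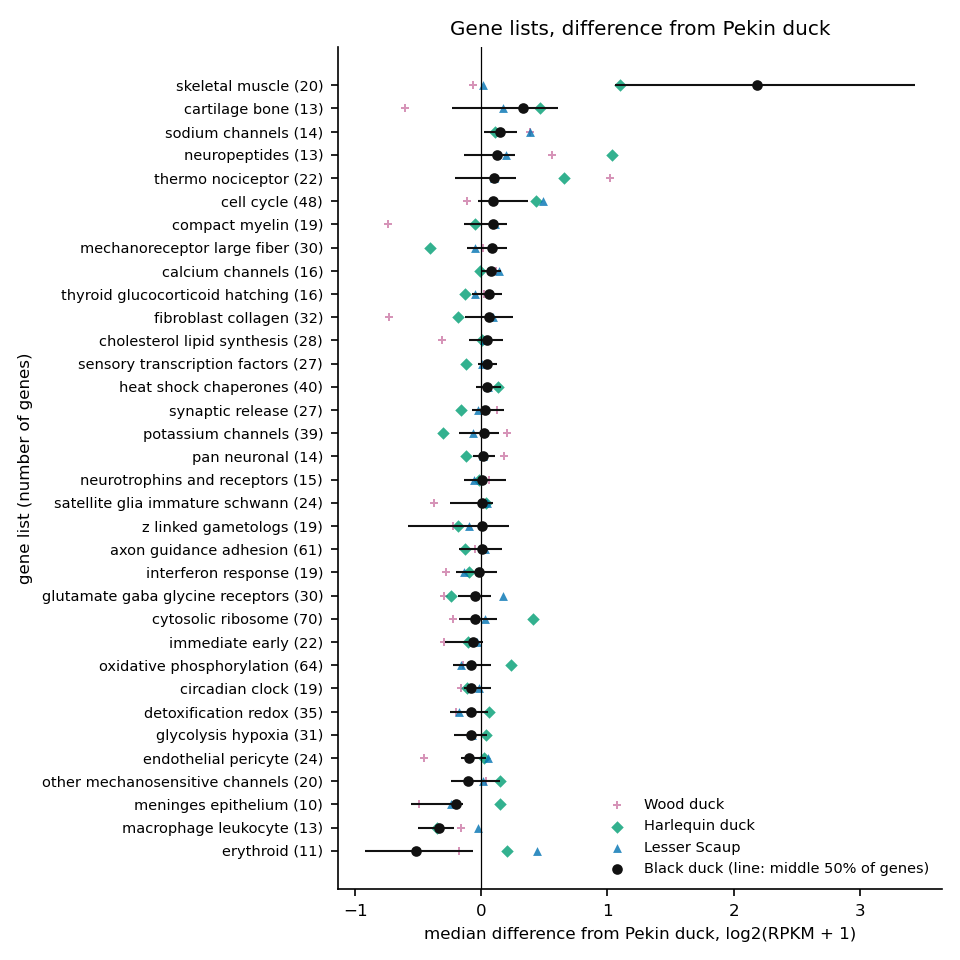
Median difference from Pekin duck on log2(RPKM + 1) of the 34 gene lists with at least 10 genes above the filter, for black duck (black, with lines for the middle 50% of genes), lesser scaup, harlequin duck and wood duck. Ruddy duck is left out for scale. Muscle genes lie far to the right in black duck, erythroid genes lowest, and most other lists near 0.

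Finally, some genes set both *Anas* ducks apart from the rest. Among 12157 genes that averaged 1 RPKM or more across the 6 ducks, 27 were at least 2-fold beyond all 4 other ducks in both Pekin duck and black duck, 23 above and 4 below. No other partner gave Pekin duck more than 2 such genes, and black duck shared 28 with harlequin duck, 27 of them low. The largest number, 43, was shared by ruddy duck and wood duck. *KIFC1*, a minus-end kinesin of the spindle, was the clearest of the named ones. The species means were 10.4 RPKM in Pekin duck, 15.2 in black duck, 0.501 in lesser scaup, 0.0247 in ruddy duck, 0.223 in harlequin duck and 0.162 in wood duck. It was near or under 0.5 RPKM outside the genus. *SLC27A3*, an acyl-CoA synthetase placed on Z, was at 11.3 RPKM in Pekin duck, 18.3 in black duck and 0.00579 to 3.16 in the others. *CD69*, an early activation antigen of lymphocytes, was at 92.99 and 94.9 RPKM, against 6.62 to 40.1, and *ID3*, an inhibitor of bHLH transcription factors, at 30.8 and 23.3, against 1.73 to 9.23. *S100A4*, a calcium-binding protein of fibroblasts and leukocytes, was at 9.57 and 8.84 RPKM, against 0.601 to 1.201. *SFRP4*, a secreted WNT inhibitor, was lower in both *Anas* ducks at 2.26 and 2.04 RPKM, against 5.79 to 15.7. These genes were found after the values had been seen, and reads of the *Anas* ducks match the Pekin duck genome most closely, a part in the result that was not tested.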

How the data were processed

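RNA of trigeminal ganglia from 21 embryos of 7 species was sequenced on strand-specific libraries, and chicken was not compared here. Per the labels and the methods, the authors used Trimmomatic 0.36 for trimming, STAR 2.5.4b for alignment to BGI_duck_1.0 (a Pekin duck genome) and to GRCg6a (chicken), featureCounts (Subread 1.6.2) for counting over protein-coding genes, and edgeR 3.22.3 for conversion to RPKM. They joined both gene lists by symbol and deposited RPKM as 1 mean of 3 birds per species. Copies of a gene carry a suffix, and reads may be shared between them.

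From this table, differences were taken on log2(RPKM + 1) for genes that averaged 1 RPKM or more in black duck and Pekin duck together, with Python 3.11.15, numpy 2.4.6 and pandas 2.3.3, and the code was tested on simulated data. With 1 value a species no test was run and no error is given. The methods give a range of read pairs over all samples, but the depth of each single library is unknown. A gene list is described by its counts and its median. Named genes were the 12 highest and 12 lowest differences with a symbol and without a copy suffix, the 6 largest in each direction where 1 of both ducks stood beyond all others, up to 4 members of each list with the largest difference, members that went against their list or were 2-fold apart, and markers used in the study. Most genes named outside this rule are marked as such or are W and Z partners and members of the *Anas* set. Also outside it, without a mark, are *CSRP3*, *MYOD1*, *MYOG*, *MYF6*, *PVALB*, *GLO1*, *BTBD9*, *GLP1R*, *TYR*, *TYRP1*, *PMEL* and *MLANA*. Genes outside the rule are not among the 184 named genes followed under other settings. A few genes under the rule are not reported here. The members and lists were chosen with earlier results of these data known. Of 14996 duck gene identifiers 12894 were matched to the newer assembly, which was used for chromosomes alone.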

Additional observations from a re-analysis of the deposited data

How the results depend on the processing

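With 1 mean per species, 1 pseudocount and 1 filter decide most counts, and leaving out birds was not possible. No paired analysis was possible because the table holds no values for single birds. Of 1185 values of 184 named genes under other settings 0 changed sign, but a filter or another pseudocount cannot change the sign of a gene. Only median ratio scaling (184 values) and quantile normalization (183 values) could have done so. With a pseudocount of 0.1, 79 values moved by 0.1 or more, and 7 did with quantile normalization. The median absolute and signed difference of black duck and the share of genes in which it was closest to Pekin duck moved under no alternative run. Its lead over lesser scaup shrank to 1.37 times when the SD of the differences replaced the median.

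The count of genes at least 2-fold higher was 62, and it was 98 with a pseudocount of 0.1, 30 with a mean of at least 5 RPKM, 35 in both annotations, 41 with the filter on the 4 other ducks, 232 at 1.5-fold and 17 at 4-fold. The count of lower genes was 92, and it was 144, 42 and 45 in the first 3 of these settings, 55 without copy suffixes and LOC identifiers, 285 at 1.5-fold and 27 at 4-fold. Black duck stood beyond the other ducks in 33 genes, but in 18 with a mean of at least 5 RPKM, 19 in both annotations, 19 without chromosomes W and Z and the muscle list, 19 with the filter on the 4 other ducks, 64 at 1.5-fold and 4 at 4-fold. Pekin duck stood apart in 16 genes, but in 28 with a pseudocount of 0.1, 6 with a mean of at least 5 RPKM, 60 at 1.5-fold, 2 at 4-fold and 8 with the filter on the 4 other ducks.

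Of 425 list medians under other settings 24 moved by more than the limit of 0.1 and 25, of 10 lists, changed sign. In 7 of these 10 lists the median was within 0.05 of 0 before and after, and the others were melanocytes and the lists of known W and Z genes, given here with the moves. With a pseudocount of 0.1 the median was -0.45 for macrophages and 3.51 for muscle. With every gene above 0 in either duck it was -0.10 for macrophages, -0.19 for erythroid genes, 1.14 for muscle, 0.14 for cartilage and -0.088 for meninges. With a mean of at least 5 RPKM it was 0.23 for melanocytes, -0.18 for macrophages, 3.46 for muscle, 0.46 for cartilage, -0.58 for meninges, -0.28 for pituitary and brain, -0.23 for immediate early genes and 0.034 for the list of known W genes. In both annotations it was -0.0091 for erythroid genes and -1.77 for the list of known Z genes with a W partner, some of whose symbols stand for the W copy in this table. Settings added after seeing the data gave 0.20 for cartilage and -0.086 for the known W genes without chromosomes W and Z, with or without the muscle list. With the filter on the 4 other ducks, also added later, the median was 0.061 for melanocytes, -0.32 for erythroid genes and 2.06 for muscle. The cause of these moves was not tested.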
